A study of Mus musculus with 6 samples.

Results

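Aldehyde dehydrogenase transcripts were followed in the whole epididymis of WT and Ocln-KO mice. The 10 genes described here, Aldh1a1, Aldh1a2, Aldh1a3, Aldh1a7, Aldh1l1, Aldh2, Aldh3a1, Aldh3a2, Aldh3b1 and Aldh9a1, were taken by symbol from a table of 57127 rows, which lists 21 Aldh genes in all. The samples were adult C57BL/6 wild type mice and adult Ocln-/- mice, with 3 libraries of each genotype, no treatment and no other allele in the labels. The Ocln-KO animals carried the deletion in every tissue and came from heterozygous pairings. The study describes RNA from separate pairs of mice and also pooled RNA, so n counts libraries. The p-values measure the spread between these libraries only.

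Aldehyde dehydrogenases oxidise aldehydes to carboxylic acids with NAD or NADP. The retinaldehyde group (Aldh1a1, Aldh1a2 and Aldh1a3) makes retinoic acid, the ligand of nuclear receptors on which the epididymal epithelium depends. Aldh2 clears acetaldehyde and lipid peroxidation products in mitochondria, while the Aldh3 enzymes act on aromatic, medium-chain and fatty aldehydes. Aldh9a1 serves carnitine synthesis, and Aldh1l1 is a folate enzyme.

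The libraries held 30646424 to 38870780 counts each, and 19691 genes were abundant enough to be tested, the 10 aldehyde dehydrogenases among them. Levels are given as counts relative to library size, as CPM, after TMM scaling, under which 1 count equals between 0.0267 and 0.0314 CPM. Ocln, the targeted gene, had 85.8, 78.7 and 91.7 CPM in WT against 15.1, 15.3 and 14.9 in Ocln-KO. On the first principal component (54.2% of the variance) Ocln-KO replicate 3, at 54.6, lay apart from Ocln-KO replicates 1 and 2, at 14.2 and 22.9, so results of the 10 genes and of the pathway lists that rest on it are also given without it. Of 7 markers of epididymal principal cells, Crisp1, Adam7 and Lcn5 had at least 4440, 5070 and 2480 CPM in every library, whereas Lcn8, Cst8 and Rnase10 had at most 2.3, 0.784 and 0.591 CPM. Spag11b, the seventh, had 0.294, 0.527 and 0.135 CPM in WT against 1.09, 144 and 215 in Ocln-KO and was called higher (log2 fold change 8.56, edgeR adjusted p = 0.0314), the largest rise of all genes tested.

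Aldh1a1 and Aldh1a7 are neighbours on chromosome 19 (20492583 to 20643463 and 20692953 to 20727556, GRCm38), on opposite strands with 49489 bases between them. Of all pairs among the 10 genes, their coding sequences were the most alike, with 91.6% of aligned bases identical against 68.5% for the next pair, Aldh1a2 and Aldh1a3. The longest run that both coding sequences share, bases 757 to 856 in each, is shown in GENCODE's letters because it is the stretch in which the genes are hardest to tell apart. All of it is shared, so no letter is in capitals:
Aldh1a1 and Aldh1a7: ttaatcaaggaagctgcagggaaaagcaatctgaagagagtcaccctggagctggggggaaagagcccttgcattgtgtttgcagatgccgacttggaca
Of the windows of 50 bases in the Aldh1a7 transcript, 7.49% also occurred in that of Aldh1a1, as did 6.54% the other way, and of those of 100 bases only 1 did. The reads were stated to be longer than this run, so the share of reads that could not be placed is not given by these windows. As the treatment of such reads in the counting is not stated, the values of both genes are uncertain, and their summed counts were tested as well.

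The pair is also alike just in front of the genes. The 120 bases before the start of Aldh1a1 (the second of its RefSeq starts, chr19:20601848-20601967, plus strand) and of Aldh1a7 (chr19:20727557-20727676, minus strand) are shown beside those of Aldh1a2 (chr9:71215669-71215788, plus strand), the retinaldehyde gene whose libraries lay on the other side. Letters are from RefSeq, GRCm38.p6, 5′ to 3′, and capitals mark CCAAT and the longest run shared by the 3 stretches, TATGCAAATG:
Aldh1a1: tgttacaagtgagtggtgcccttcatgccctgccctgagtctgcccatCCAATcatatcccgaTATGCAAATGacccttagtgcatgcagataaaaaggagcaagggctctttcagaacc
Aldh1a7: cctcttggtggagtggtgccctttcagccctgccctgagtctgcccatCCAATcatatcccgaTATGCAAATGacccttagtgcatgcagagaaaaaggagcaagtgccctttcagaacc
Aldh1a2: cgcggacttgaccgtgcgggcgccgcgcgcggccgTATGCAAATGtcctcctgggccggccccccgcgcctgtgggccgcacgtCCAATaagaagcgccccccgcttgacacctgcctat
The stretches of Aldh1a1 and Aldh1a7 had 105 of 120 bases in common (87.5%), while over the whole 250 bases before the same starts 65.3% of aligned columns were identical. The stretches had both motifs at the same distance from the start, and 49.2% and 52.5% G and C. That of Aldh1a2 had 71.7% G and C and held the motifs in the other order. On either strand, CCAAT occurred in 37.4% of 32851 promoter windows of 300 bases (250 before and 50 after the start). TATGCAAATG, picked because it was shared, occurred in 0.17% of them, among the Aldh genes in Aldh1a1, Aldh1a2, Aldh1a7 and Aldh8a1. RefSeq windows were matched for 7 of the 10 genes and not for Aldh1a3, Aldh2 and Aldh3a1.

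Aldh1a1 was by far the most abundant of the 10 genes. Compared per length, as CPM per kilobase of annotated exon, it had 412 ± 44.4 in WT (SD, n = 3), which ranked 71 among the 17172 tested genes with an exon length. Aldh2 followed with 65.6 ± 4.98 and Aldh1a7 with 54.5 ± 4.05. Aldh3a1 (21.8 ± 5.22) and Aldh1a2 (19.1 ± 0.499) overlapped in WT and were followed by Aldh3a2 at 16.1 ± 1.52, which also overlapped with Aldh3a1, by Aldh9a1 at 11.2 ± 0.324 and Aldh1a3 at 2.77 ± 0.284 CPM per kilobase. Aldh3b1 (1.17 ± 0.202) and Aldh1l1 (0.975 ± 0.251) came last and overlapped. In Ocln-KO the order of the means was the same but for Aldh3a1, which went from place 4 to place 8, at 0.926 ± 0.542 CPM per kilobase (SD, n = 3), and overlapped with Aldh3b1. In Ocln-KO, Aldh2, Aldh1a7 and Aldh1a2 also overlapped with each other, Aldh3a2 with Aldh9a1, and Aldh1l1 with Aldh3b1 and with Aldh3a1. Per length of the principal transcript alone, the WT means were 863 for Aldh1a1, 29.3 for Aldh3a2 and 24.5 for Aldh3a1, so that the place of Aldh3a2 depends on the length used.

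**Figure D1:**
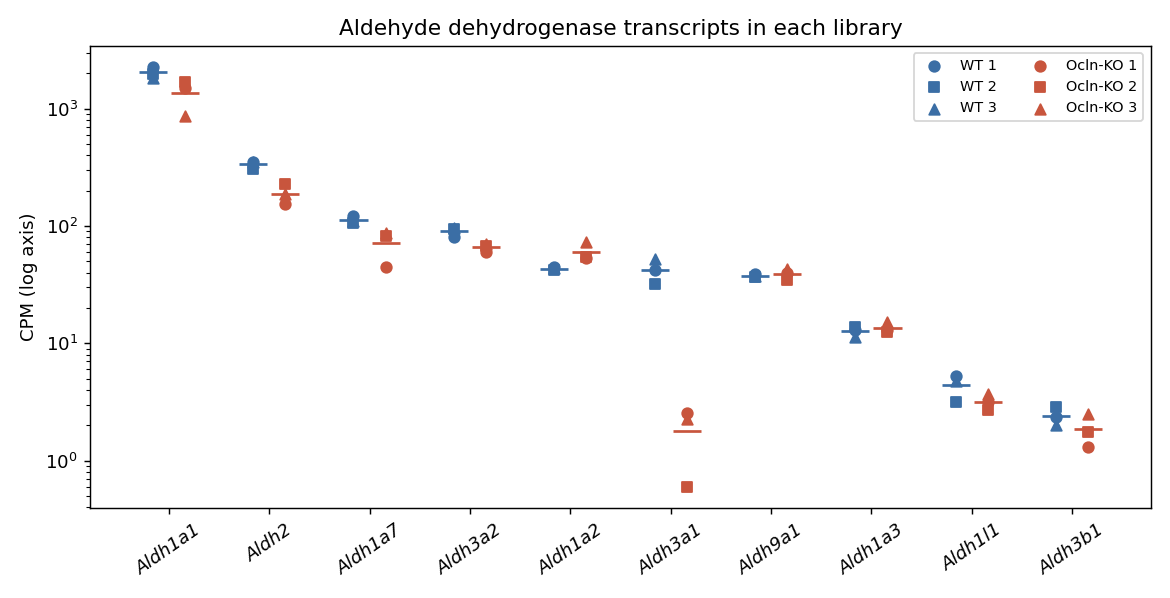
CPM of the 10 aldehyde dehydrogenase genes on a log axis, with WT libraries in blue, Ocln-KO libraries in red, a symbol for each replicate and lines at the means (n = 3 each). Aldh3a1 was at 32.3 CPM or more in WT and at 2.55 CPM or less in Ocln-KO, and the Ocln-KO point of Aldh1a1 farthest below WT is replicate 3, at 861 CPM.

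Of the 10 genes, 7 were lower and 3 higher in Ocln-KO, where 49.1% of all genes tested were lower. Their log2 fold changes (Ocln-KO over WT) had a median of -0.46 against 0.01 over all genes. Tested with the quasi-likelihood method of edgeR, with p adjusted by Benjamini-Hochberg across all genes, Aldh3a1, Aldh2 and Aldh3a2 fell with an adjusted p under 0.05. These were 3 of 10, where 5.04% of all genes tested were called lower and 8.95% in either direction. None was called higher, against 3.91% of all genes (Aldh1a2 had an unadjusted p under 0.05; DESeq2 called 1 higher and limma-voom none). WT and Ocln-KO libraries were fully apart in 6 of the 10 genes, 5 of them lower and Aldh1a2 higher, where 36.3% of all genes did not overlap (19.4% lower and 16.9% higher). At the thresholds of the study, a fold change over 2 or under 0.5 with an adjusted p under 0.05, only Aldh3a1 passed, against 3.19% of all genes (1.7% lower and 1.49% higher). Scaled by total counts only, 2 genes were called lower and Aldh1a2 higher. Over all genes, TMM scaling gave 770 calls higher and 992 lower, and total counts only gave 1174 and 674. Without WT replicate 1, none of the 10 genes passed the edgeR test (4 had an unadjusted p under 0.05), while all genes called went from 1762 to 23. Without WT replicate 2 or WT replicate 3, 1 passed, while all genes called were 230 and 56.

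**Figure D2:**
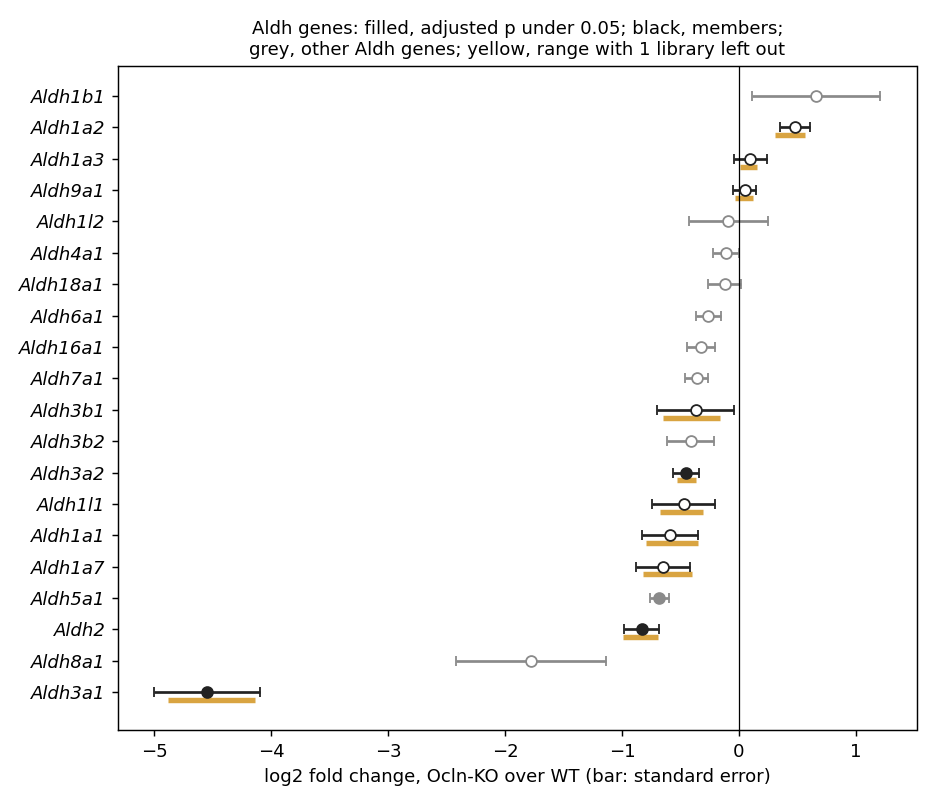
Log2 fold change of the 20 tested Aldh genes, with bars of 1 standard error; black marks the 10 genes described here, grey the other Aldh genes, filled symbols an adjusted p under 0.05 by edgeR, and yellow lines the range of the value with each library left out. Aldh3a1 stands at -4.55, and the other 19 lie between -1.78 and 0.66.

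Aldh3a1 (chromosome 11, 61208510 to 61218418) encodes a cytosolic enzyme of aromatic and medium-chain aldehydes that is known as a target of the aryl hydrocarbon receptor. Its raw counts were 1587, 1102 and 1953 in WT and 82, 19 and 76 in Ocln-KO. In CPM these were 42.4, 32.3 and 52.5 against 2.55, 0.596 and 2.25. No library of either genotype came near the other, and the Ocln-KO mean was 4.24% of the WT mean. The libraries of Aldh3a1 also had the widest relative spread of the 10 genes within Ocln-KO, with a coefficient of variation of 58.5%, Ocln-KO replicate 2 being the lowest. The log2 fold change of -4.55 ± 0.45 (SE, the standard error) had an adjusted p of 0.00638 by edgeR, and only without WT replicate 1 did this exceed 0.05, at 0.0518, with a log2 fold change of -4.55. In bulk tissue, fewer cells of a type and less RNA per cell cannot be told apart.

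Aldh3a2 lies 4998 bases from Aldh3a1 (61223417 to 61267528), on the opposite strand, and encodes the microsomal fatty aldehyde dehydrogenase. It had 80.6, 95.1 and 95.7 CPM in WT against 59.6, 68.1 and 70.9 in Ocln-KO. No Ocln-KO library reached the lowest WT library, by a smaller margin than in Aldh3a1, and the Ocln-KO mean was 73.2% of the WT mean. At -0.45 on the log2 scale ± 0.11 (SE from the edgeR fit, adjusted p = 0.0437), the call lay near the threshold. It was lost when WT replicate 1, 2 or 3 (adjusted p = 0.0999, 0.124 and 0.146) or Ocln-KO replicate 1 or 2 (0.0793 and 0.0941) was left out, and with total counts only (0.0699). The transcripts of these neighbours share no window of 50 bases.

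Aldh3b1 (chromosome 19, 3913491 to 3930898), whose enzyme acts on lipid aldehydes at membranes, was low in both genotypes. It had 2.35, 2.84 and 2.02 CPM in WT against 1.31, 1.76 and 2.51 in Ocln-KO. The genotypes overlapped, and the log2 fold change of -0.37 ran from -1.02 to 0.29 over 2 standard errors on each side (adjusted p = 0.502, edgeR).

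Aldh2 (chromosome 5, 121566027 to 121593824), the mitochondrial acetaldehyde enzyme, had 351, 307 and 352 CPM in WT against 154, 229 and 186 in Ocln-KO. All 3 Ocln-KO libraries were lower, and their mean was 56.3% of the WT mean. The log2 fold change was -0.83 ± 0.15 (SE from the edgeR fit, adjusted p = 0.0233), short of the fold change threshold of the study. Without Ocln-KO replicate 3 it was -0.81 (adjusted p = 0.0257), and the call was lost without WT replicates 1, 2 and 3, at 0.103, 0.0601 and 0.0999. An antisense gene, Gm42879, shares 130 exon bases with Aldh2, and as the strand setting of the counting is not stated, reads there cannot be assigned with certainty.

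Aldh9a1 (chromosome 1, 167349963 to 167368530), which oxidises trimethylaminobutyraldehyde in carnitine synthesis, showed the smallest difference of the 10 genes. It had 39.1, 37.1 and 37.3 CPM in WT against 39.5, 34.9 and 42.7 in Ocln-KO. The genotypes overlapped, with a log2 fold change of 0.05 and 2 standard errors reaching from -0.15 to 0.24 (adjusted p = 0.803, edgeR). Aldh1l1 (chromosome 6, 90550768 to 90599171), the cytosolic formyltetrahydrofolate dehydrogenase, had 5.31, 3.13 and 4.76 CPM in WT against 3.15, 2.7 and 3.7 in Ocln-KO. The lowest WT library lay among the Ocln-KO libraries, and the log2 fold change of -0.47 reached from -1.01 to 0.07 over the same span (adjusted p = 0.292, edgeR). Aldh1l1 shares 499 exon bases with Gm15756 on the opposite strand and 105 with Gm45901 on its own strand.

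Of the retinaldehyde group and its relative Aldh1a7, Aldh1a1 and Aldh1a7 were lower and Aldh1a2 higher in every Ocln-KO library, but none of them passed the edgeR test. Aldh1a1, the cytosolic enzyme, had 2270, 1990 and 1840 CPM in WT against 1490, 1700 and 861 in Ocln-KO. All 3 Ocln-KO libraries lay under the WT range, Ocln-KO replicate 2 the nearest to it and Ocln-KO replicate 3 the farthest. The log2 fold change was -0.59 ± 0.24 (SE from the edgeR fit, adjusted p = 0.144) and became -0.35 without Ocln-KO replicate 3 (adjusted p = 0.134). Of all counts on the 21 Aldh genes, Aldh1a1 took 53.9%, 52% and 49% in WT, 50.6% and 53.6% in Ocln-KO replicates 1 and 2 and 37.6% in Ocln-KO replicate 3.

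Aldh1a7, the neighbour of Aldh1a1, had 122, 106 and 110 CPM in WT against 45.1, 82.2 and 87.7 in Ocln-KO. Here Ocln-KO replicate 1 was the lowest, and Ocln-KO replicate 3, the lowest in Aldh1a1, was the highest of its genotype. The log2 fold change was -0.65 ± 0.23 (SE from the edgeR fit, adjusted p = 0.107) and -0.40 without Ocln-KO replicate 1. DESeq2 gave an adjusted p of 0.0339, the lowest of the alternatives, and the highest was 0.261. Per 100 counts of Aldh1a1 there were 5.37, 5.33 and 5.95 counts of Aldh1a7 in WT. In Ocln-KO there were 3.04, 4.82 and 10.2. The Ocln-KO values lay on both sides of the narrow WT range. With both genes summed, the WT libraries had 2400, 2100 and 1950 CPM and the Ocln-KO libraries 1530, 1790 and 949 CPM, or -0.60 on the log2 scale (adjusted p = 0.124, edgeR) and -0.37 without Ocln-KO replicate 3 (adjusted p = 0.121).

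**Figure D3:**
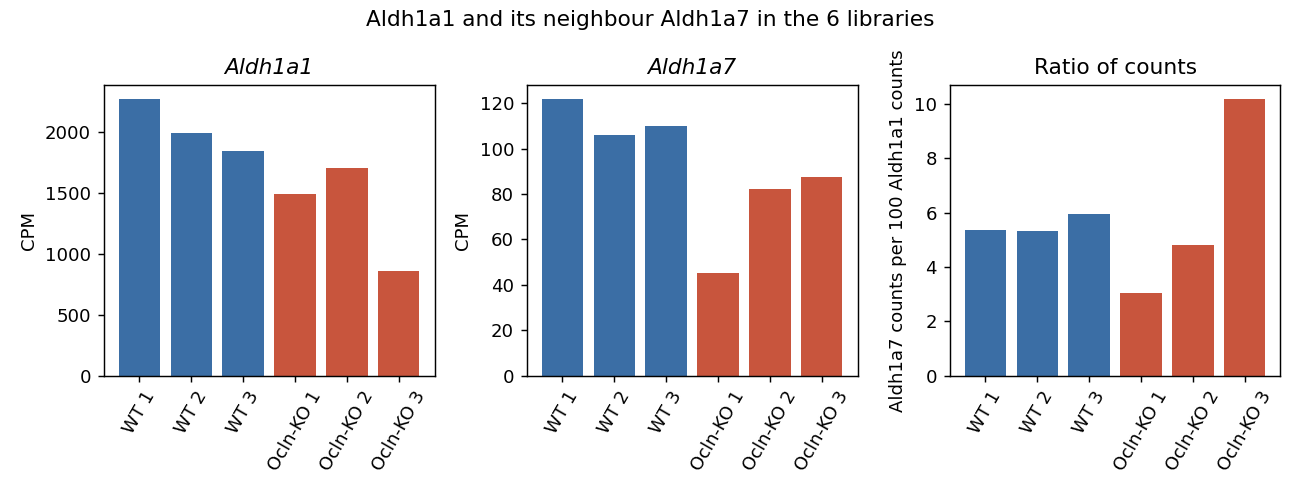
CPM of Aldh1a1 and Aldh1a7 and the number of Aldh1a7 counts per 100 Aldh1a1 counts in each library, WT in blue and Ocln-KO in red, 1 bar per library. The ratio was between 5.33 and 5.95 in WT and between 3.04 and 10.2 in Ocln-KO.

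Aldh1a2 (chromosome 9, 71215789 to 71296243), the main retinaldehyde dehydrogenase of the embryo, had 44.3, 42 and 43.5 CPM in WT against 53.4, 54.1 and 73.7 in Ocln-KO. WT libraries were almost alike, with a coefficient of variation of 2.61%, and each Ocln-KO library lay above them, Ocln-KO replicate 3 the farthest. The log2 fold change was 0.48 ± 0.13 (SE from the edgeR fit, adjusted p = 0.0634). It was 0.31 without Ocln-KO replicate 3 (adjusted p = 0.08) and 0.57 without Ocln-KO replicate 1 (adjusted p = 0.0497). The adjusted p was also under 0.05 with DESeq2 (0.0199), with total counts only (0.0415) and with no count filter (0.044), and was 0.172 at most over the alternatives. Aldh1a3 (chromosome 7, 66390892 to 66427477), the third retinaldehyde dehydrogenase, had 13, 13.9 and 11.4 CPM in WT against 13.1, 12.6 and 15.2 in Ocln-KO. The genotypes overlapped, with a log2 fold change of 0.10 and 2 standard errors reaching from -0.19 to 0.38 (adjusted p = 0.70, edgeR).

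Transcripts that mark cell types also differed between the same libraries. Over all genes tested, 5.04% were called lower and 3.91% higher. Without overlap of the libraries, 19.4% of all genes tested were lower and 16.9% higher. The summed level of 5 clear cell markers was 84.5 to 106 CPM in WT and 42.1 to 52.8 CPM in Ocln-KO, with 4 of the 5 called lower. That of 5 adipocyte markers was 5.5 to 9.63 CPM in WT and 0.0591 to 3.64 CPM in Ocln-KO, where Adipoq, Plin1, Cidec and Cfd had no count in Ocln-KO replicate 3; none passed the edgeR test, while 2 had an unadjusted p under 0.05. Of 5 red blood cell markers, whose sum was 21.9 to 49.5 and 6.03 to 13.2 CPM, Alas2 was called lower. Macrophage markers summed to 145 to 167 CPM in WT and 172 to 271 CPM in Ocln-KO, and fibroblast markers to 1930 to 2110 and 1500 to 3750 CPM, with Ocln-KO replicate 3 the highest in both. All 8 macrophage markers were higher, 2 of them without overlap (16.9% of all genes tested were), but no gene of either list was called. Mesothelial markers overlapped, at 18.9 to 28 and 15.6 to 27.2 CPM, as did 4 general epithelial markers, at 1390 to 1560 and 1090 to 1480 CPM. The 7 principal cell markers summed to 25300 to 29900 CPM in WT and to 17500 to 24800 CPM in Ocln-KO, but of the 6 tested 3 were higher and 3 lower. Only Crisp1 was lower without overlap (log2 fold change -0.92, adjusted p = 0.0855, edgeR), Adam7 (-0.11) and Lcn5 (0.04) overlapped, and Spag11b alone was called, as higher. Smooth muscle markers had 1150 to 1390 and 1570 to 2080 CPM, with Myh11 called higher (adjusted p = 0.0296, edgeR). The summed basal cell markers overlapped, at 216 to 228 and 225 to 263 CPM. Of these 5 genes 4 were higher, with Krt14 alone called (adjusted p = 0.0276, edgeR). Itga6 was lower without overlap and was not called (log2 fold change -0.21). Endothelial markers overlapped, at 66.3 to 80.9 and 69 to 84.4 CPM, and lymphocyte markers summed to 2.35 to 2.72 and 4.36 to 8.58 CPM. Of 7 lymphocyte markers 3 were abundant enough to be tested, and none was called. Sperm markers were at 297 CPM or more in 5 libraries and at 96.4 CPM in Ocln-KO replicate 3, while those of neural tissue were at 23.7 CPM or less in every library. The part of any of these in the aldehyde dehydrogenase values was not tested.

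Of the 11 other Aldh genes, 10 could be tested, of which 9 had lower values in Ocln-KO, against 49.1% of all genes tested. The 10 had a median difference of -0.29 on the log2 scale. In 6 of them each Ocln-KO library was below each WT library, against 19.4% of all genes tested. By edgeR 1 of the 10 was called, as lower, where 5.04% of all genes tested were called lower and 8.95% in either direction. This was Aldh5a1, the mitochondrial succinic semialdehyde dehydrogenase of GABA breakdown. It had 74.2, 76.9 and 72.5 CPM in WT against 47.5, 43.5 and 48.2 in Ocln-KO, tight in both genotypes and well apart. Its log2 fold change was -0.68 ± 0.08 (SE from the edgeR fit, adjusted p = 0.0106), and the call was lost without WT replicate 1 or WT replicate 3. Aldh5a1 shares 796 and 203 exon bases with 2 genes on the opposite strand. Aldh6a1, the methylmalonate semialdehyde dehydrogenase of valine breakdown, lay lower in each Ocln-KO library, with 907, 881 and 878 CPM in WT against 826, 725 and 673 in Ocln-KO. Its log2 fold change of -0.26 did not pass (adjusted p = 0.148, edgeR). Aldh6a1 shares 1078 exon bases with Bbof1 on the opposite strand. Aldh8a1 had 4.41, 2.37 and 5 CPM in WT against 1.03, 2.13 and 0.266 in Ocln-KO, a difference of -1.78 on the log2 scale with a standard error of 0.64 (adjusted p = 0.115, edgeR).

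Genes that supply, use or remove retinoids did not share a direction. Of 29 listed, 23 were tested, with 13 higher and 10 lower and a median of 0.10 for the log2 fold change. By edgeR, 4 rose, against 3.91% of all genes, and 1 fell, against 5.04%. Stra6, the membrane receptor for retinol binding protein, had 2.16, 2.58 and 1.96 CPM in WT against 3.61, 5.46 and 7.39 in Ocln-KO, a difference of 1.30 on the log2 scale (adjusted p = 0.0416, edgeR). Ocln-KO replicate 3 was the highest, and without it the difference was 1.02 and the call was lost (adjusted p = 0.062), as it was with limma-voom (0.0544). Rdh10, which oxidises retinol to retinaldehyde, the substrate of the Aldh1a enzymes, had 6.22, 5.07 and 5.95 CPM in WT against 12.7, 8.53 and 13.1 in Ocln-KO, a rise of 0.99 on the log2 scale (adjusted p = 0.0322, edgeR).

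Dhrs3, which reduces retinaldehyde back to retinol, had 48.9, 56 and 49.1 CPM in WT against 97.3, 87.2 and 88.7 in Ocln-KO. This was the smallest p in the list, with a log2 fold change of 0.83 ± 0.09 (SE from the edgeR fit, adjusted p = 0.00863). The receptor gene Rarg had 21.7, 27.6 and 19.1 CPM in WT against 38.5, 40.7 and 29.8 in Ocln-KO, a rise of 0.67 on the log2 scale (adjusted p = 0.0483, edgeR). Adh1, an alcohol dehydrogenase that also oxidises retinol, fell from 87.3 ± 6.47 to 61.2 ± 7.9 CPM (SD, n = 3 each), by 0.51 on the log2 scale (adjusted p = 0.0378, edgeR). Cyp26b1, which breaks down retinoic acid, had 27.8, 32.5 and 19.5 CPM in WT against 15.1, 19.3 and 18.6 in Ocln-KO, with a log2 fold change of -0.59 (adjusted p = 0.0963, edgeR). Against 5 calls with all libraries, the list had 0, 1 and 0 without WT replicates 1, 2 and 3 (6, 5 and 6 had an unadjusted p under 0.05). Leaving out Ocln-KO replicate 1, 2 or 3 gave 5, 2 and 4 calls, while all genes called were 1657, 562 and 1692. The 5 without Ocln-KO replicate 1 were not the same genes, as Rdh10 (adjusted p = 0.0571, edgeR) and Rarg (0.0827) lost their calls. Without Ocln-KO replicate 2, Stra6 (0.0942), Rarg (0.126) and Adh1 (0.0936) lost theirs. With total counts only, 4 genes of the list were called higher and none was called lower.

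**Figure D4:**
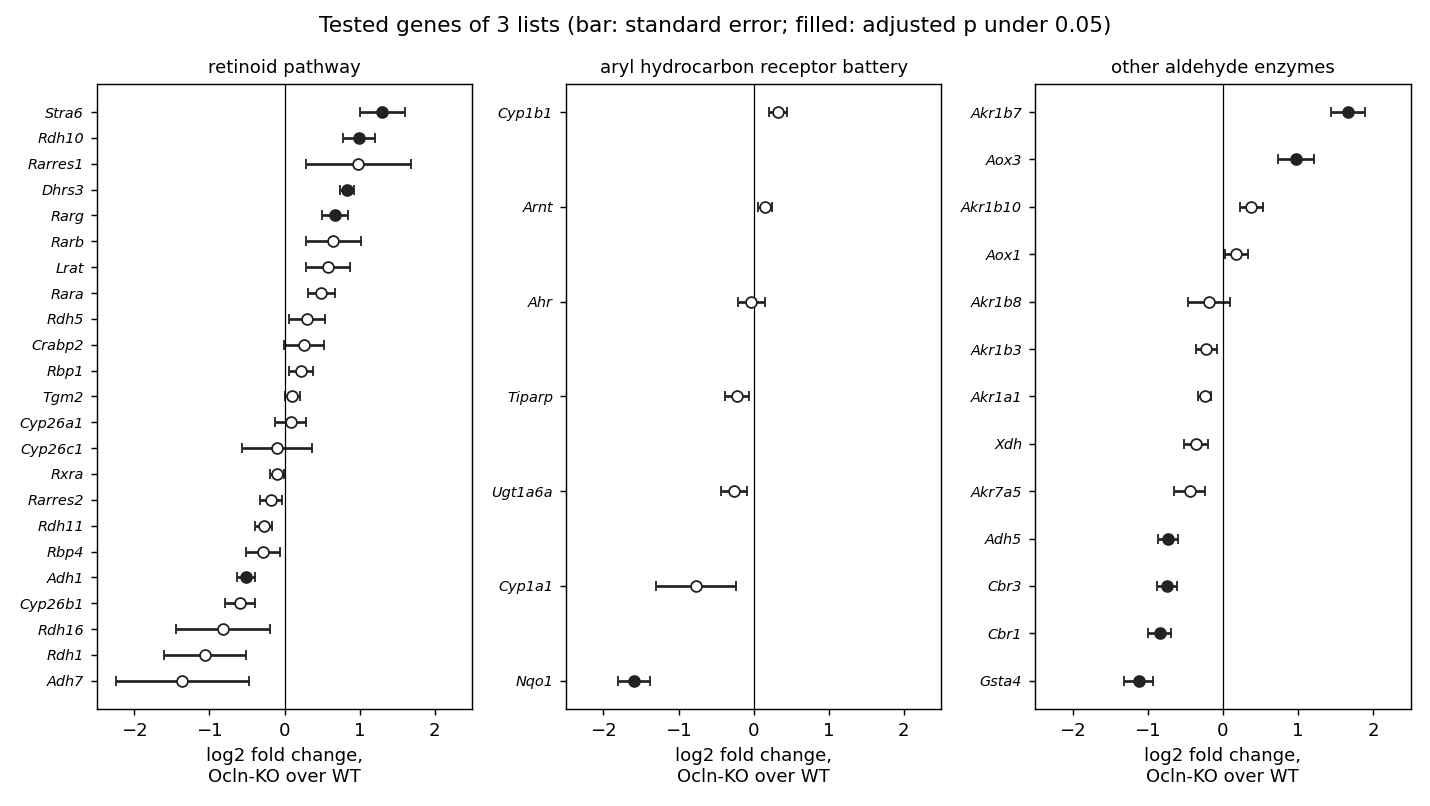
Log2 fold change (Ocln-KO over WT) of the tested genes of the retinoid pathway, of the aryl hydrocarbon receptor battery and of other aldehyde enzymes, with bars of 1 standard error and filled symbols for an adjusted p under 0.05 by edgeR. Stra6, Rdh10, Dhrs3 and Rarg are filled to the right in the first panel, and Nqo1 is the only filled symbol in the second, at -1.59.

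As Aldh3a1 is a known target of the aryl hydrocarbon receptor, 9 genes of this receptor's battery were read beside it. Of the 7 tested, Nqo1, a quinone reductase, alone passed the edgeR test, as lower, against 5.04% of all genes. It had 113, 108 and 116 CPM in WT against 52.2, 30.8 and 29.2 in Ocln-KO, a difference of -1.59 on the log2 scale ± 0.21 (SE from the edgeR fit, adjusted p = 0.0128). Cyp1a1, the best known target, had 1.92, 1.41 and 2.02 CPM in WT against 0.343, 1.1 and 1.69 in Ocln-KO, with overlap between the genotypes (log2 fold change -0.77, adjusted p = 0.379, edgeR). Cyp1b1 had 222, 204 and 190 CPM in WT against 222, 253 and 298 in Ocln-KO (log2 fold change 0.33, adjusted p = 0.131, edgeR), and the receptor gene Ahr had 48.4 ± 3.21 and 47.3 ± 13.1 CPM (SD, n = 3 each). The call of Nqo1 was lost without WT replicate 1 and without WT replicate 3, in each of which the list had no call (2 and 1 had an unadjusted p under 0.05). Whether the receptor had a part in the values of Aldh3a1 or Nqo1 was not tested.

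Among 15 other enzymes that reduce, oxidise or conjugate aldehydes, 13 were tested, and by edgeR 4 fell, against 5.04% of all genes, and 2 rose, against 3.91%. Gsta4, the glutathione transferase of the lipid aldehyde hydroxynonenal, had 21.8, 20.1 and 19.4 CPM in WT against 6.98, 9.38 and 11.7 in Ocln-KO, a difference of -1.12 on the log2 scale (adjusted p = 0.0216, edgeR). The carbonyl reductase genes Cbr1 and Cbr3 fell by 0.84 and 0.74 on the log2 scale (adjusted p = 0.0245 and 0.0235, edgeR). Adh5, the formaldehyde dehydrogenase that works with glutathione, fell by 0.73, with a WT mean of 348 ± 43.3 and an Ocln-KO mean of 210 ± 28.4 CPM (SD, n = 3 each, edgeR adjusted p = 0.0245). Akr1b7, an aldose reductase relative that is abundant in the vas deferens, rose instead, from 33.5, 32 and 54.7 CPM in WT to 115, 111 and 156 CPM in Ocln-KO (log2 fold change 1.67, adjusted p = 0.0137, edgeR). Aox3, an aldehyde oxidase gene, rose by 0.97 on the log2 scale (edgeR, adjusted p = 0.0458). Without Ocln-KO replicate 3 the log2 fold change was 0.84 and the call was lost (adjusted p = 0.0742). Against 6 calls with all libraries, the list had 0, 0 and 1 without WT replicates 1, 2 and 3 (6, 8 and 8 had an unadjusted p under 0.05). Leaving out Ocln-KO replicate 2 gave 3, while all genes called were 562.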

How the data were processed

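Total RNA of whole epididymis was depleted of rRNA, made into directional libraries and sequenced as paired ends in a single lane. Reads were trimmed by the authors and mapped to GRCm38 by HISAT2 2.0.4 (version from the submitters' processing notes), and HTSeq counted them per gene. The deposited values are raw counts per gene without normalization. The counting mode, strand setting and treatment of multiply aligned reads are not given in the sources used here. An extraction note in the labels names another tissue, prefrontal cortex. Of the epididymal markers, Crisp1, Adam7 and Lcn5 were abundant and 4 others were low in WT. The 6 neural markers together had 23.7 CPM or less in every library, where Crisp1 alone had at least 4440 CPM.

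The 10 genes and all lists were chosen with earlier results of these data known. Named beyond them are genes of the lists with an adjusted p under 0.05, plus Ocln, marker genes (Spag11b, Krt14, Myh11 and Alas2 among them), Aldh6a1, Aldh8a1, Cyp26b1, Cyp1a1, Cyp1b1 and Ahr, some of which were chosen after their values were seen. The count test was that of edgeR 4.0.16 (R 4.3.3), with filterByExpr by genotype, TMM factors, estimateDisp, glmQLFit and glmQLFTest, Benjamini-Hochberg adjustment over 19691 genes, unpaired. Standard errors are the log2 fold change over the square root of F. With 3 libraries against 3, an exact permutation test cannot go under p = 0.1, so none was run. Exon lengths came from GENCODE M21, which held 87.2% of the tested genes, coordinates from RefSeq (GRCm38.p6), and identities from global alignments with Biopython 1.88. Alternatives were DESeq2 1.42.0, limma-voom (limma 3.58.1), RLE factors, total counts only, each library left out, a replicate block, no count filter and a filter of 10 or more counts per library. The values of single genes outside the 10 and the counts of DEGs under these alternatives were added after seeing the data.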

Additional observations from a re-analysis of the deposited data

How the results depend on the processing

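DESeq2 called 3312 genes against 1762 with edgeR, 5 of the 10 aldehyde dehydrogenases against 3 and 3 of the other Aldh genes against 1. With it Aldh1a2 (log2 fold change 0.49), Aldh1a7 (-0.64) and the sum of Aldh1a1 and Aldh1a7 (-0.59) passed 0.05. Aldh1a2 also passed with total counts only (0.57) and no count filter (0.48), and Aldh3a2 did not pass with total counts only (-0.37). The replicate block left 41 calls over all genes, 1 among the 10 genes, 0 among the other Aldh genes, 0 in the retinoid list, 0 in the aryl hydrocarbon receptor battery and 1 among the other aldehyde enzymes (4807, 6, 3, 8, 1 and 8 at an unadjusted p under 0.05). Under the block Aldh2 (-0.85) and Aldh3a2 (-0.45) lost their calls. The labels give same-numbered libraries only a number in common. The correlations of their deviations from the genotype means were -0.066, -0.0091 and -0.056. Libraries with different numbers gave -0.092 to 0.14. With 3 libraries per genotype, these correlations cannot decide whether the libraries were paired, so the block may or may not stand for a pairing. With each library left out, calls ran from 23 to 1692 over all genes, 0 to 3 among the 10 genes, 0 to 1 among the other Aldh genes, 0 to 5 in the retinoid list, 0 to 1 in the battery and 0 to 6 among the other aldehyde enzymes. The log2 fold changes ran from -4.88 to -4.14 for Aldh3a1, -0.99 to -0.69 for Aldh2, -0.53 to -0.37 for Aldh3a2 and 0.31 to 0.57 for Aldh1a2. Aldh9a1 ran from -0.03 (without Ocln-KO replicate 3, a change of sign) to 0.12, and the other 9 genes kept their direction in all 13 alternatives. At the thresholds of the study, DEGs of all genes were 628 with edgeR, 1060 with DESeq2, 40 with the block and 23 to 790 with a library left out. The cause of these moves was not tested.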
